A study of Mus musculus with 8 samples.

Results

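Immediate early genes are switched on within minutes of a stimulus, before any new protein is needed, and their transcripts are short-lived. The group described here holds the transcription factors Fos, Fosb, Jun, Junb, Egr1 and Atf3, the nuclear protein gene Ier2, the phosphatase gene Dusp1 and the mRNA decay factor gene Zfp36. Every probe set that the platform annotation assigns to 1 of these 9 symbols was taken, whatever its values, which gave 10 probe sets among 22690 and 9 genes among 12393. Jun had 2 probe sets and every other gene 1. The 9 genes themselves were chosen with earlier results of these data known.

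RNA of whole mouse eyes had been hybridized to 8 Affymetrix expression arrays, giving a pair of arrays (I and II) for every one of 4 groups. The groups were KPAW eyes at 1 month of age, wild-type eyes of that age, KPAW eyes at 5 days and wild-type eyes at 5 days. KPAW is not expanded in the labels, so the allele or treatment behind the name is not stated here. The strain C57Bl6 is named for the 5-day wild type alone. The labels do not say whether arrays of a group come from separate animals, so each p-value measures only the spread between these arrays. That spread may be technical in wild type at 1 month. Arrays I and II of KPAW at 5 days differ in sex-linked transcripts, and those of KPAW at 1 month in rod markers. Those of wild type at 5 days differ in epidermal markers. These values are given below. Signals are linear values in arbitrary units, scaled here to a common trimmed mean per array, and they have meaning only between arrays of the same probe set. Fold changes come from log2(signal + 0.0211), which understates changes of weak probe sets.

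The eye label was borne out by Pax6, the eye master regulator, at 0.699 to 1.06 and by the lens crystallin gene Cryaa at 6.31 to 9.88 over the 8 arrays. KPAW I at 1 month stood apart, with a summed signal of 8 rod photoreceptor markers of 0.829, against 29.1 to 36.2 in the other 3 arrays of that age. KPAW I at 5 days also differed from its age group, as given with the results below. Its sex-linked transcripts did so too: Xist read 0.0821, against 2.95 to 3.64 in the other 3 arrays at 5 days, and the Y-linked Eif2s3y 0.149, where the other 3 were at the lowest listed value. All 4 arrays at 1 month had Xist at 0.0523 to 0.0861. In RNA of a whole eye, fewer cells of a type and less RNA per cell cannot be told apart.

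Fos and Fosb proteins pair with a Jun protein to form AP-1, a factor that binds the motif TGANTCA. Jun can also pair with itself, while Junb is a Jun relative and a weaker activator in many settings. Egr1 is a zinc finger factor of GC-rich sites. Dusp1 removes phosphates from MAP kinases and Zfp36 speeds the decay of AU-rich mRNAs, so both act as brakes on the response. MAP kinase and serum signals reach these genes through serum response factor at CArG boxes, and calcium and cAMP signals through CREB at cAMP response elements. Wounding of the corneal epithelium and light on the retina are known to induce Fos in the eye.

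RefSeq promoters (build GRCm38.p6, from 250 bases before to 50 after the gene start) were matched for 7 of the 9 genes, all but Egr1 and Ier2. Both strands were searched for the CArG box (CC, then 6 bases of A or T, then GG), the cAMP response element TGACGTCA, its core TGACG (contained in it) and the AP-1 site TGANTCA. The core was found in 5 of 7 promoters (Fos, Fosb, Junb, Dusp1 and Atf3), and 20.8% of all 32851 promoters of this length hold it. The full element was found in Dusp1 alone (1.79% of all promoters), the CArG box in Zfp36 alone (1.63%) and the AP-1 site in none (7.81%). These are letter matches in a short window and say nothing of binding. The 250 bases before the start are shown for the 3 genes that rose with age (Fos, Junb, Dusp1), for Jun, which fell, and for the CArG box of Zfp36. Each is written 5′ to 3′ along the gene's own strand, with motif matches in capitals.
Fos, chr12:85473640-85473889, plus strand: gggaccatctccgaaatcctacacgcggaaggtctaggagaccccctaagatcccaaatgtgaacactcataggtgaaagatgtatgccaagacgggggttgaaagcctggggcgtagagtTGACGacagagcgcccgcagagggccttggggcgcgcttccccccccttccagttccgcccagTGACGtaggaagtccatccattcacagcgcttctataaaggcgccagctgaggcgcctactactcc
Junb, chr8:84978749-84978998, minus strand: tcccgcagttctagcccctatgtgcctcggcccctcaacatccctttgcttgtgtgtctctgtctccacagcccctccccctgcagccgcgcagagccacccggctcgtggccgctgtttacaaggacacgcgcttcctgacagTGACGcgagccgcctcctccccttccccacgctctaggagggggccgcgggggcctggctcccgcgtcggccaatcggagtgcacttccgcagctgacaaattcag
Dusp1, chr17:26508473-26508722, minus strand: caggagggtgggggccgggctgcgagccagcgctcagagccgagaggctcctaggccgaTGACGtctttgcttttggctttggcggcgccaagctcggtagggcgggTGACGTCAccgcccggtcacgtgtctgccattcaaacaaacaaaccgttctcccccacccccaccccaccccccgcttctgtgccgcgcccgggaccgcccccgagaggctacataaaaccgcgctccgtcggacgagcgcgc
Jun, chr4:95052223-95052472, minus strand: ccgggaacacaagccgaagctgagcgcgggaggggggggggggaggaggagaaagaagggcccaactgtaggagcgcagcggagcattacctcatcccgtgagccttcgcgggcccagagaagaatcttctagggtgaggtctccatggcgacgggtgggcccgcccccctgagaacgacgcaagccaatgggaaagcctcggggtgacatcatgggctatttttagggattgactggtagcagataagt
Zfp36, chr7:28379229-28379478, minus strand: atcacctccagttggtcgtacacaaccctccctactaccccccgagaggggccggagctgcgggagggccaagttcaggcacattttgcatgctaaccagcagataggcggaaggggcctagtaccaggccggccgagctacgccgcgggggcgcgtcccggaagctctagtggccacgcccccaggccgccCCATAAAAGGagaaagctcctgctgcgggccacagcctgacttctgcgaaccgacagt
Counted from the start, the 2 cores of Fos lay at -129 and -66 and the core of Junb at -106. In Dusp1 a core lay at -191 and the full element at -143, and in Zfp36 the CArG box lay at -58. Jun had no match.

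The comparison of 1 month with 5 days asks how the transcripts differ between the neonatal and the young adult eye. Fos, Junb and Dusp1 rose and a Jun probe set fell, and this was called in the KPAW eyes and again in the wild-type eyes. In all, 4 of the 9 probe sets tested passed an adjusted p of 0.05 in each kind of eye, 3 higher and 1 lower (limma with Benjamini-Hochberg adjustment over all 15838 probe sets kept). Over all probe sets kept, 14.3% passed in KPAW (6.76% higher and 7.51% lower) and 18.1% in wild type (8.73% higher and 9.33% lower). An unadjusted p under 0.05 was found for 7 of 9 in KPAW (30.6% of all probe sets) and 5 of 9 in wild type (33.4%). The log2 fold change was above 0 in 6 of 9 in KPAW (46.3%) and in 7 of 9 in wild type (49.6%). The 9 had a median log2 fold change of 0.99 in KPAW and 0.84 in wild type, against -0.04 and 0.00 over all probe sets. Single arrays moved these medians: in KPAW the median was 0.35 without KPAW II and 1.44 without KPAW I at 5 days, and 0.67 without KPAW I at 1 month. In wild type it was 0.50 without wild type II at 1 month.

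Fos, the founding member of the Fos family, read 0.354 and 0.564 in KPAW eyes at 1 month (arrays I and II), 0.382 and 0.478 in wild-type eyes at 1 month, 0.204 and 0.0868 in KPAW eyes at 5 days and 0.0968 and 0.0935 in wild-type eyes at 5 days. All 4 arrays at 1 month lay above all 4 at 5 days. The log2 fold change of Fos, 1 month over 5 days, was 1.59 in KPAW (SE 0.34, adjusted p = 0.0221 in limma) and 1.95 in wild type (SE 0.34, adjusted p = 0.00876), or 3.01-fold and 3.86-fold. The KPAW call for Fos was lost without KPAW II at 5 days (1.06, adjusted p = 0.0891) and without KPAW II at 1 month (1.27, adjusted p = 0.0714). The wild-type call was lost without wild type I at 5 days (1.97, adjusted p = 0.0537), wild type II at 5 days (1.93, adjusted p = 0.0546) or wild type II at 1 month (1.79, adjusted p = 0.0647).

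Junb gave 0.292 and 0.250 in KPAW at 1 month, 0.196 and 0.230 in wild-type eyes at 1 month, 0.138 and 0.0863 in KPAW at 5 days and 0.0719 and 0.0715 in wild type at 5 days. The 4 groups did not overlap, with KPAW above wild type at each age and both groups of 1 month above both of 5 days. Junb rose by 1.16 in KPAW (SE 0.21, adjusted p = 0.0109 in limma) and by 1.33 in wild type (SE 0.21, adjusted p = 0.00533) on the log2 scale. In wild type it passed under all 20 alternatives, with a highest adjusted p of 0.0449, and in KPAW it was lost without KPAW II at 5 days (0.88, adjusted p = 0.0569).

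Dusp1 read 0.945 and 0.729 in KPAW at 1 month, 0.453 and 0.648 in wild-type eyes at 1 month, 0.443 and 0.229 in KPAW at 5 days and 0.198 and 0.239 in wild type at 5 days. All 4 arrays at 1 month lay above all 4 at 5 days, though KPAW I at 5 days came close to wild type I at 1 month. The log2 fold change with age was 1.32 in KPAW (SE 0.30, adjusted p = 0.0265 in limma) and 1.24 in wild type (SE 0.30, adjusted p = 0.028). In KPAW the Dusp1 call was lost without KPAW I at 1 month (1.14, adjusted p = 0.0912) and without KPAW II at 5 days (0.88, adjusted p = 0.123). In wild type it was lost whichever of the 4 wild-type arrays was left out (0.99 to 1.48, adjusted p from 0.0645 to 0.154).

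Jun moved the other way. Its representative probe set (1448694_at) read 0.208 and 0.199 in KPAW at 1 month, 0.173 and 0.178 in wild-type eyes at 1 month, 0.358 and 0.317 in KPAW at 5 days and 0.278 and 0.262 in wild type at 5 days. Both kinds of eye were lower at 1 month, with no overlap between any of the 4 groups. The log2 fold change was -0.67 in KPAW (SE 0.13, adjusted p = 0.0158 in limma) and -0.57 in wild type (SE 0.13, adjusted p = 0.024). The Jun call was lost in KPAW without either KPAW array of 5 days (I, -0.59, adjusted p = 0.0715; II, -0.76, adjusted p = 0.0559), and in wild type whichever of the 4 wild-type arrays was left out (-0.60 to -0.53, adjusted p from 0.0895 to 0.145). On the values as deposited, without scaling between arrays, Jun was -0.65 in KPAW (adjusted p = 0.227) and -0.10 in wild type (adjusted p = 0.822), where the median of all probe sets for age in wild type was 0.44. The other probe set (1417409_at) read 0.130 and 0.150 in KPAW at 1 month, 0.104 and 0.150 in wild-type eyes at 1 month, 0.238 and 0.203 in KPAW at 5 days and 0.135 and 0.220 in wild type at 5 days. Its differences, -0.58 in KPAW (adjusted p = 0.147) and -0.40 in wild type (adjusted p = 0.282), had the same sign and did not pass, and the 2 probe sets correlated at r = 0.786 over the 8 arrays, which share 4 groups.

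All 4 KPAW calls for age depended on the spread that the model pooled over the 4 groups. With the KPAW groups fitted alone none of them passed, at adjusted p 0.0607 for Junb, 0.0806 for Jun, 0.0834 for Dusp1 and 0.089 for Fos, with the log2 fold changes given above.

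**Figure D1:**
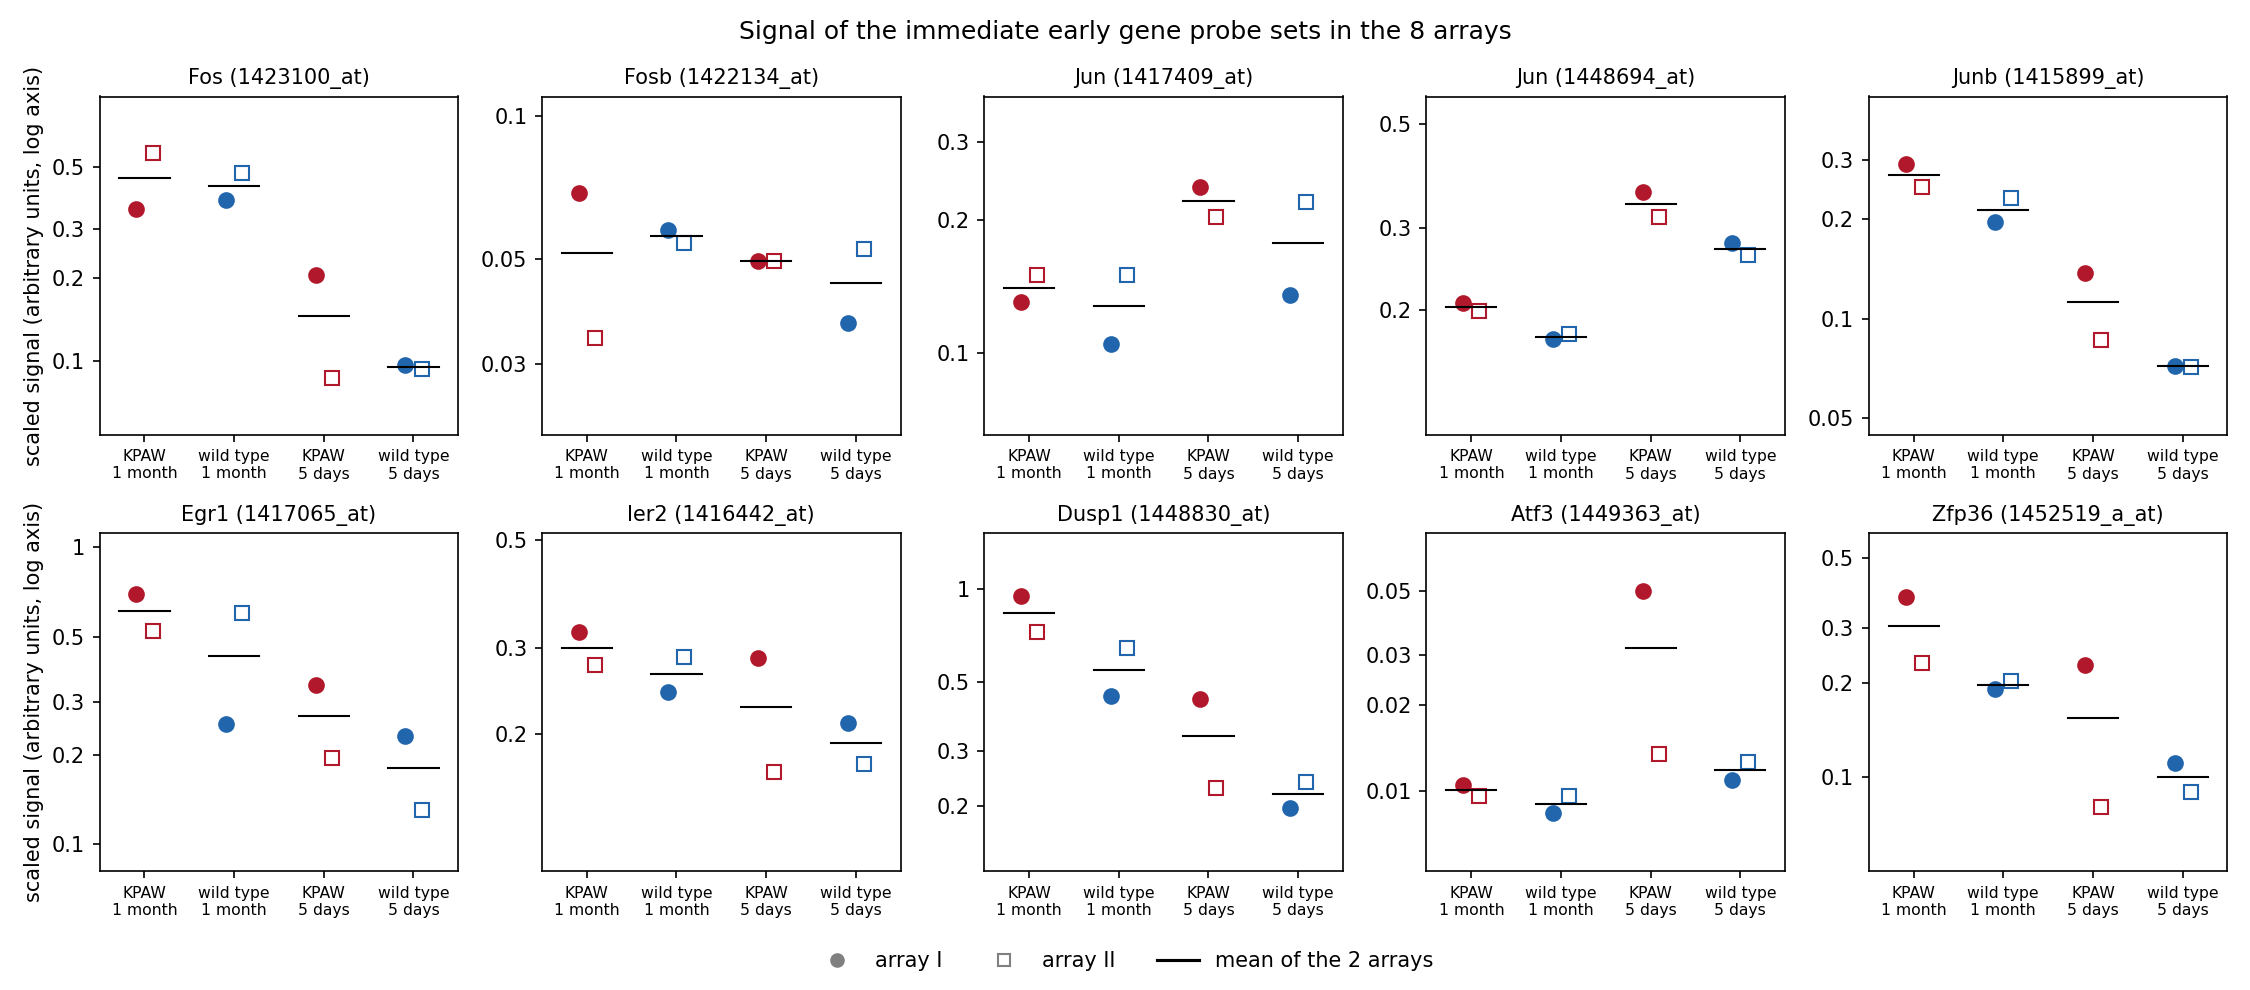
Scaled signal (arbitrary units, log axis) of each immediate early probe set in the 8 arrays, with KPAW and wild type side by side at 1 month and at 5 days. Fos, Junb and Dusp1 are higher in all 4 arrays at 1 month than in all 4 at 5 days, and Jun 1448694_at is lower.

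The other members gave differences with age that did not pass. Egr1 read 0.698 and 0.521 in KPAW at 1 month, 0.255 and 0.602 in wild-type eyes at 1 month, 0.344 and 0.194 in KPAW at 5 days and 0.231 and 0.130 in wild type at 5 days. Each kind of eye was higher at 1 month without overlap, but wild type I at 1 month lay within the 5-day range of KPAW. The Egr1 log2 fold change was 1.15 in KPAW (SE 0.43, adjusted p = 0.111 in limma) and 1.09 in wild type (SE 0.43, adjusted p = 0.117), and as deposited both passed (1.19, adjusted p = 0.0229, and 1.55, adjusted p = 0.00116). The wild-type value was 0.50 without wild type II at 1 month, 0.72 without wild type II at 5 days and 1.68 without wild type I at 1 month, the KPAW value was 0.77 without KPAW II at 5 days, and none of these passed.

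Zfp36 read 0.375 and 0.232 in KPAW at 1 month, 0.191 and 0.202 in wild-type eyes at 1 month, 0.228 and 0.0806 in KPAW at 5 days and 0.112 and 0.0897 in wild type at 5 days. KPAW I at 5 days lay above both wild-type arrays of 1 month, and the other 3 arrays of 5 days lay below every array of 1 month. The Zfp36 log2 fold change was 0.99 in KPAW (SE 0.39, adjusted p = 0.129 in limma) and 0.84 in wild type (SE 0.39, adjusted p = 0.173). Without KPAW I at 5 days both passed (KPAW 1.64, adjusted p = 0.0149; wild type 0.84, adjusted p = 0.0482), while without KPAW II at 5 days the KPAW value was 0.35 (adjusted p = 0.534) and the wild-type value passed (adjusted p = 0.0483). Without KPAW I at 1 month the KPAW value was 0.67 and did not pass. As deposited both also passed (KPAW 1.03, adjusted p = 0.0441; wild type 1.29, adjusted p = 0.00455), and so did the wild-type value with the wild-type groups fitted alone (adjusted p = 0.0126).

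Ier2, which encodes a growth-factor-inducible nuclear protein, read 0.323 and 0.277 in KPAW at 1 month, 0.244 and 0.288 in wild-type eyes at 1 month, 0.286 and 0.167 in KPAW at 5 days and 0.210 and 0.174 in wild type at 5 days. KPAW I at 5 days overlapped the range of 1 month. The differences were 0.41 in KPAW (adjusted p = 0.28) and 0.43 in wild type (adjusted p = 0.242). Fosb, the Fos relative known for a long-lived splice form in brain, stayed between 0.0342 and 0.0687 in all 8 arrays, with differences of 0.00 in KPAW (adjusted p = 0.995) and 0.24 in wild type (adjusted p = 0.563).

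Atf3, a stress-induced partner of Jun, was too weak to be tested. Its deposited signal was at the lowest listed value of 0.01 in 5 of 8 arrays, at 0.0118 in wild type I at 1 month, 0.0149 in KPAW II at 5 days and 0.0432 in KPAW I at 5 days. Its scaled signal in KPAW I at 5 days, 0.0501, was the only value of Atf3 above the pseudocount.

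Over the 9 probe sets tested, the groups of 1 month lay above those of 5 days without overlap in 5 of 9 in KPAW (25.3% of all probe sets) and in 7 of 9 in wild type (32.5%). They lay below in 2 of 9 in KPAW (32.2%) and in 1 of 9 in wild type (33%). The group means of 6 genes (Fos, Junb, Egr1, Ier2, Dusp1 and Zfp36) stood in a single order: KPAW at 1 month, wild type at 1 month, KPAW at 5 days, wild type at 5 days. In that order the arrays of neighbouring groups were all separate for Junb and all overlapping for Egr1 and Ier2. For Fos the middle pair alone was separate, for Zfp36 the first pair alone, and for Dusp1 the first and the middle pair. Both Jun probe sets had the order KPAW at 5 days, wild type at 5 days, KPAW at 1 month, wild type at 1 month.

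Markers of the ocular surface and of other tissues moved with age beside these genes, not all in the same direction. Of all probe sets kept, 25.3% lay higher and 32.2% lower at 1 month without overlap in KPAW, and 32.5% and 33% in wild type. As higher, 6.76% passed in KPAW and 8.73% in wild type. Of 8 corneal epithelium markers, 5 of 8 in KPAW and 7 of 8 in wild type were higher at 1 month without overlap. As higher, 4 passed in KPAW and 5 in wild type, and none passed as lower. Aldh1a1 was lower at 1 month in wild type without overlap, at 0.920 and 0.645, against 1.32 and 1.12 at 5 days. Their summed signal was 20.4 and 24.9 in KPAW at 1 month, 26.3 and 29.3 in wild-type eyes at 1 month, 11.9 and 4.76 in KPAW at 5 days and 7.16 and 6.12 in wild type at 5 days. In KPAW 7 of 8 conjunctiva and goblet cell markers (4 called) and 7 of 11 epidermal markers (2 called) were also higher at 1 month without overlap. Their sums were 16.2 and 8.80 for conjunctiva at 1 month, against 3.27 and 0.831 at 5 days, and 28.6 and 10.7 for epidermis, against 6.58 and 0.409. In wild type none of either list was called. There 4 of 8 conjunctiva and goblet cell markers were higher and 6 of 11 epidermal markers lower at 1 month without overlap. In wild type the rod photoreceptor sum was 29.1 and 36.2 at 1 month, against 7.23 and 7.34 at 5 days, and all 8 markers were higher without overlap. Keratocyte and fibroblast markers were lower there, at 7.95 and 7.47 at 1 month, against 18.2 and 17.8 at 5 days, with 7 of 8 lower without overlap. Of 8 lens markers, 7 in KPAW and 1 in wild type were higher at 1 month without overlap, and 1 in wild type was lower. Of 8 Mueller glia markers, 5 were higher in each kind of eye, while 1 in KPAW and 2 in wild type were lower. Sex-linked transcripts also differed between the ages in wild type, with Xist at 0.0817 and 0.0523 at 1 month, against 2.95 and 3.64 at 5 days. There this difference cannot be told apart from age. In KPAW Xist read 0.0861 and 0.0621 at 1 month, against 0.0821 and 3.13 at 5 days, so KPAW II at 5 days alone stood apart. The part of these differences in the age results was not tested.

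KPAW was next set against wild type within each age, which asks whether these genes differ between the 2 kinds of eye. At 1 month none of the 9 probe sets passed, where 0.0253% of all probe sets did (0.0126% higher and 0.0126% lower). None had an unadjusted p under 0.05 either, against 6.95% of all. The largest differences were 0.60 for Dusp1 (SE 0.30, adjusted p = 0.675 in limma), 0.59 for Egr1 (SE 0.43, adjusted p = 0.719) and 0.54 for Zfp36 (SE 0.39, adjusted p = 0.718). With an array left out, the Egr1 difference ran from 0.00 (without wild type I at 1 month) to 1.18 (without wild type II at 1 month), that of Dusp1 from 0.35 without wild type I to 0.84 without wild type II, and that of Zfp36 from 0.22 without KPAW I to 0.86 without KPAW II. Dusp1 averaged 0.837 ± 0.153 in KPAW and 0.550 ± 0.138 in wild type (SD, n = 2 arrays each). Junb differed by 0.32 (SE 0.21, adjusted p = 0.698) and Jun 1448694_at by 0.19 (SE 0.13, adjusted p = 0.709). Fos was nearly level at 0.06 (SE 0.34, adjusted p = 0.97), with 0.459 ± 0.148 in KPAW and 0.430 ± 0.0680 in wild type.

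The log2 fold change was above 0 in 8 of 9 probe sets at 1 month (48% of all probe sets), Fosb being the exception at -0.13. The KPAW arrays lay above the wild-type arrays without overlap in 4 of 9 (Junb, Jun 1448694_at, Dusp1 and Zfp36), where 17% of all probe sets did, and below in none (19.6%). The median was 0.19, against -0.01 over all probe sets. Without wild type I at 1 month 6 of 9 were above 0 and the median was 0.05, and without wild type II the median was 0.36. On the values as deposited 4 of 9 were above 0, with a median of -0.06 for the members and -0.26 for all probe sets. The members thus lay above the median of all probe sets on both scales, while the number above 0 depended on the scaling and on wild type I.

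At 5 days none of the 9 passed, as none of all probe sets did (0%), and every adjusted p was 1. An unadjusted p under 0.05 was found for Junb alone, against 2.39% of all probe sets. Junb averaged 0.112 ± 0.0363 in KPAW and 0.0717 ± 0.000288 in wild type (SD, n = 2 arrays each), a difference of 0.49 (SE 0.21). The other differences ran from 0.11 (Fosb) to 0.53 (Egr1), and all 9 were above 0, against 52.5% of all probe sets. The groups were separate, KPAW above wild type, in 2 of 9 (Junb and Jun 1448694_at), against 16.8% of all probe sets, and in none below (16.6%).

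**Figure D2:**
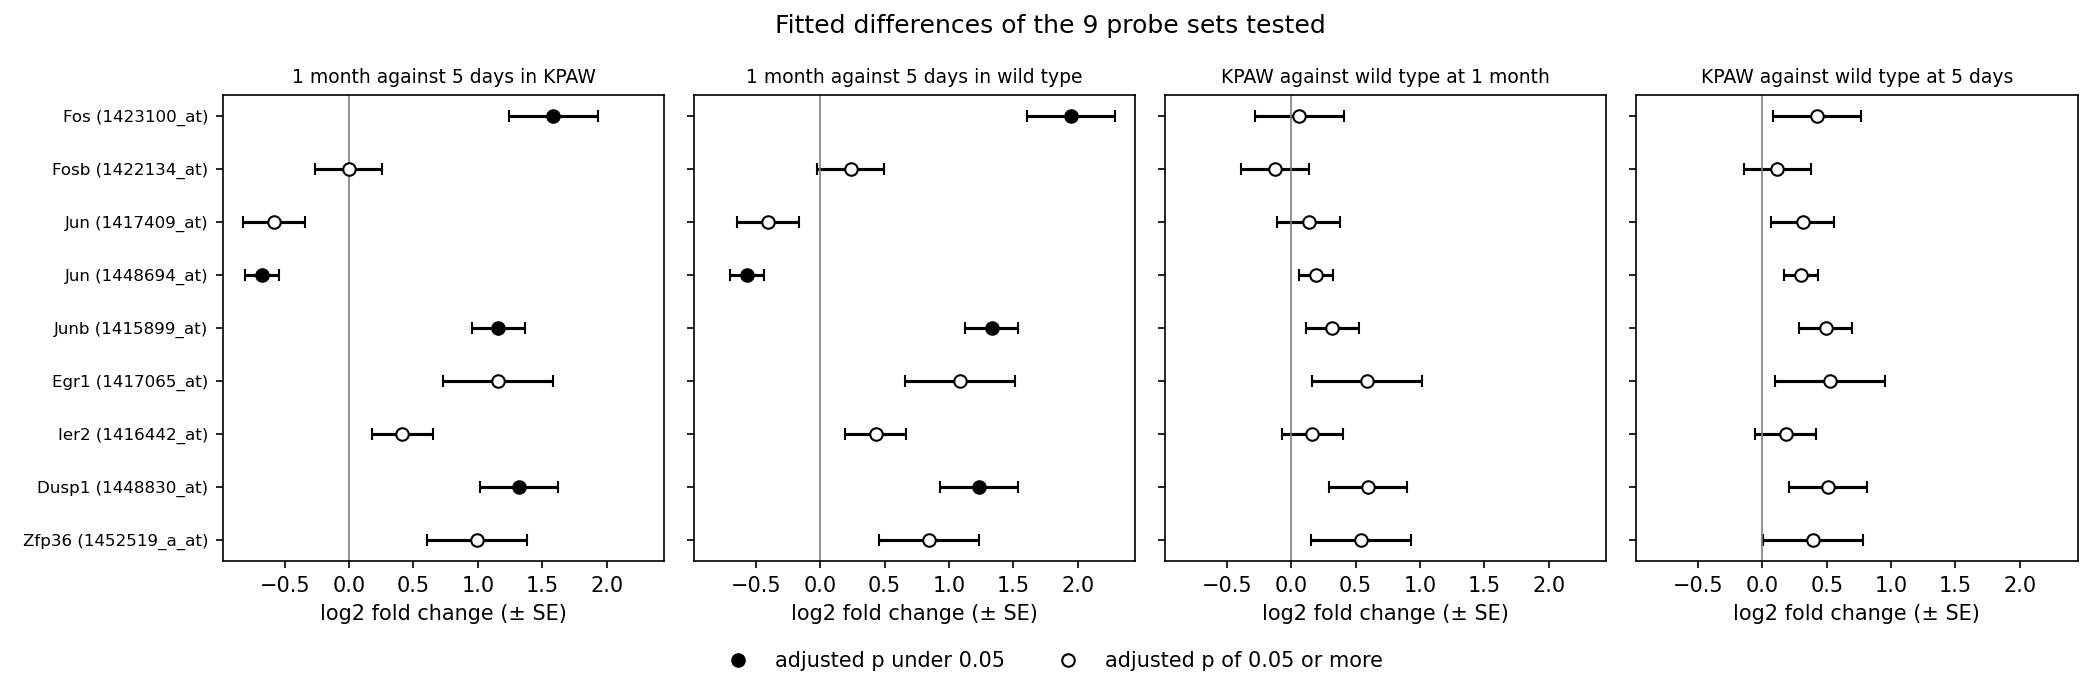
Log2 fold change of each immediate early probe set with its standard error, for 1 month against 5 days in KPAW and in wild type and for KPAW against wild type at each age. Fos, Junb and Dusp1 lie between 1.16 and 1.95 for age in both kinds of eye, and the KPAW differences lie between -0.13 and 0.60.

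The differences at 5 days came largely from array I. Against the wild-type mean of that age, KPAW I was higher in 9 of 9 with a median of 0.77, and KPAW II in 6 of 9 with a median of 0.11. Of all probe sets kept, 48.7% were higher in KPAW I and 54.1% in KPAW II. For Zfp36 the difference was 1.04 in KPAW I and -0.25 in KPAW II, for Fos 0.96 and -0.11, and for Ier2 0.53 and -0.17. KPAW I lay above the other 3 arrays of 5 days in 8 of 9 probe sets, where it did so in 23.5% of all probe sets. KPAW I exceeded KPAW II in 9 of 9, with a median difference of 0.70, against 44.6% of all probe sets. Without KPAW I at 5 days the median difference from wild type was 0.11. At 1 month both KPAW arrays were above the wild-type mean in 8 of 9, with medians of 0.26 in KPAW I and 0.22 in KPAW II. Of all probe sets kept, 50.2% were above it in KPAW I and 47.9% in KPAW II. KPAW I lay above the other 3 arrays of that age in 7 of 9 (33.7% of all probe sets).

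**Figure D3:**
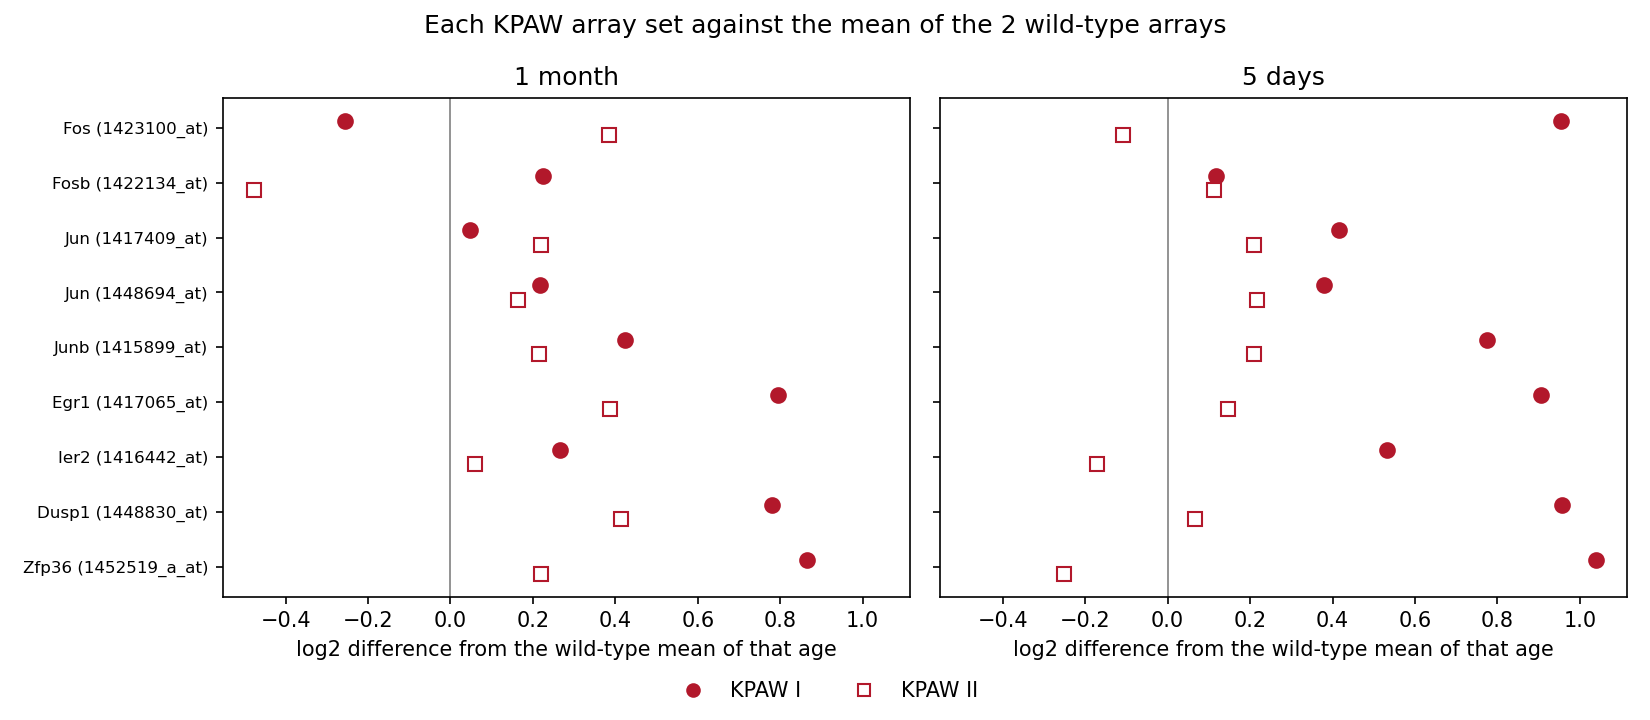
Log2 difference of each KPAW array from the mean of the 2 wild-type arrays of the same age, per immediate early probe set. At 5 days KPAW I is above 0 in 9 of 9 (48.7% of all probe sets) and KPAW II in 6 of 9 (54.1%). At 1 month each is above 0 in 8 of 9 (50.2% of all probe sets in KPAW I and 47.9% in KPAW II).

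KPAW I at 5 days also had the highest summed signal of its age for the corneal, conjunctival, epidermal, neutrophil and macrophage lists, though not every marker of these lists was highest in it. Of all probe sets kept, 23.5% were higher in KPAW I than in the other 3 arrays of 5 days. The share that was lower than in those arrays was not computed. The summed corneal epithelium signal was 11.9 and 4.76 in KPAW I and II, against 7.16 and 6.12 in wild type, with 3 of 8 markers above the other 3 arrays and 1 (Aldh3a1) below. Among those above were the basal keratins Krt5, at 2.995 and 0.489 in KPAW, against 0.881 and 0.680 in wild type, and Krt14, at 3.69 and 0.169, against 0.361 and 0.363. Without these 2 genes the other 6 summed to 5.25 and 4.10 in KPAW, against 5.91 and 5.08 in wild type, and the corneal keratin Krt12 was 0.721 and 0.739 in KPAW and 0.553 and 0.548 in wild type. Conjunctiva and goblet cell markers summed to 3.27 and 0.831, against 0.900 and 0.945, with 2 of 8 (Krt4 and Krt13) above the other 3 arrays and 3 below. Without Krt4 and Krt13 the sums were 0.612 and 0.735 in KPAW, against 0.712 and 0.691 in wild type. Of their defining genes both KPAW arrays listed Agr2 at the lowest value, and both wild-type arrays listed Muc5ac, Agr2 and Tff3 there. Neutrophil markers summed to 1.45 and 0.240, against 0.261 and 0.225, with 4 of 7 above. Most of the KPAW I sum came from S100a8, S100a9 and Ltf, at 0.271, 0.498 and 0.537. Mpo, also above, was at 0.0677, against 0.0661 in wild type I. Ngp and Elane were not above, and Camp was at the lowest value in all 4 arrays. Epidermal markers summed to 6.58 and 0.409 in KPAW, against 5.40 and 0.493 in wild type, so that wild type I shared the high level, with 5 of 11 above the other 3 arrays and Ivl at the lowest value in all 4. Krt1, Krt10, Lor, Flg and Calm4 were higher in wild type I than in KPAW I. Macrophage and microglia markers summed to 1.64 and 1.34, against 1.54 and 1.496, with 7 of 11 above and 2 below. Skeletal muscle markers summed to 2.39 and 4.23, against 4.18 and 3.05, with 7 of 9 below. Mueller glia markers summed to 5.98 and 5.92, against 7.18 and 6.73, with 6 of 8 below. The part of these markers, and of the sex-linked difference given above, in the values of KPAW I was not tested.

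At 1 month all 11 epidermal markers read higher in KPAW without overlap, with sums of 28.6 and 10.7, against 0.492 and 0.489 in wild type. Lor, Ivl, Krtdap and Sprr1b were at the lowest value in wild type. Ivl was at that value in KPAW too, so its place in the count came from the scaling alone. Conjunctiva and goblet cell markers summed to 16.2 and 8.80, against 2.69 and 2.77, with 7 of 8 higher and 1 lower (Tff3, near the lowest value in KPAW). Neutrophil markers summed to 2.30 and 0.667, against 0.380 and 0.295, with 4 of 7 higher and 1 (Ngp) lower. Those higher were S100a8, S100a9, Ltf and Camp. Camp was at the lowest value in both KPAW arrays, so its place in the count came from the scaling alone. Macrophage and microglia markers summed to 2.37 and 1.83, against 1.498 and 1.36, with 7 of 11 higher and 1 (Cx3cr1) lower. Keratocyte and fibroblast markers summed to 15.2 and 11.2, against 7.95 and 7.47, with 6 of 8 higher. Corneal epithelium markers summed to 20.4 and 24.9, against 26.3 and 29.3, with 2 of 8 higher and 5 lower. Of all probe sets kept, 17% lay higher and 19.6% lower without overlap. The part of these markers in the KPAW values of 1 month was not tested.

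**Figure D4:**
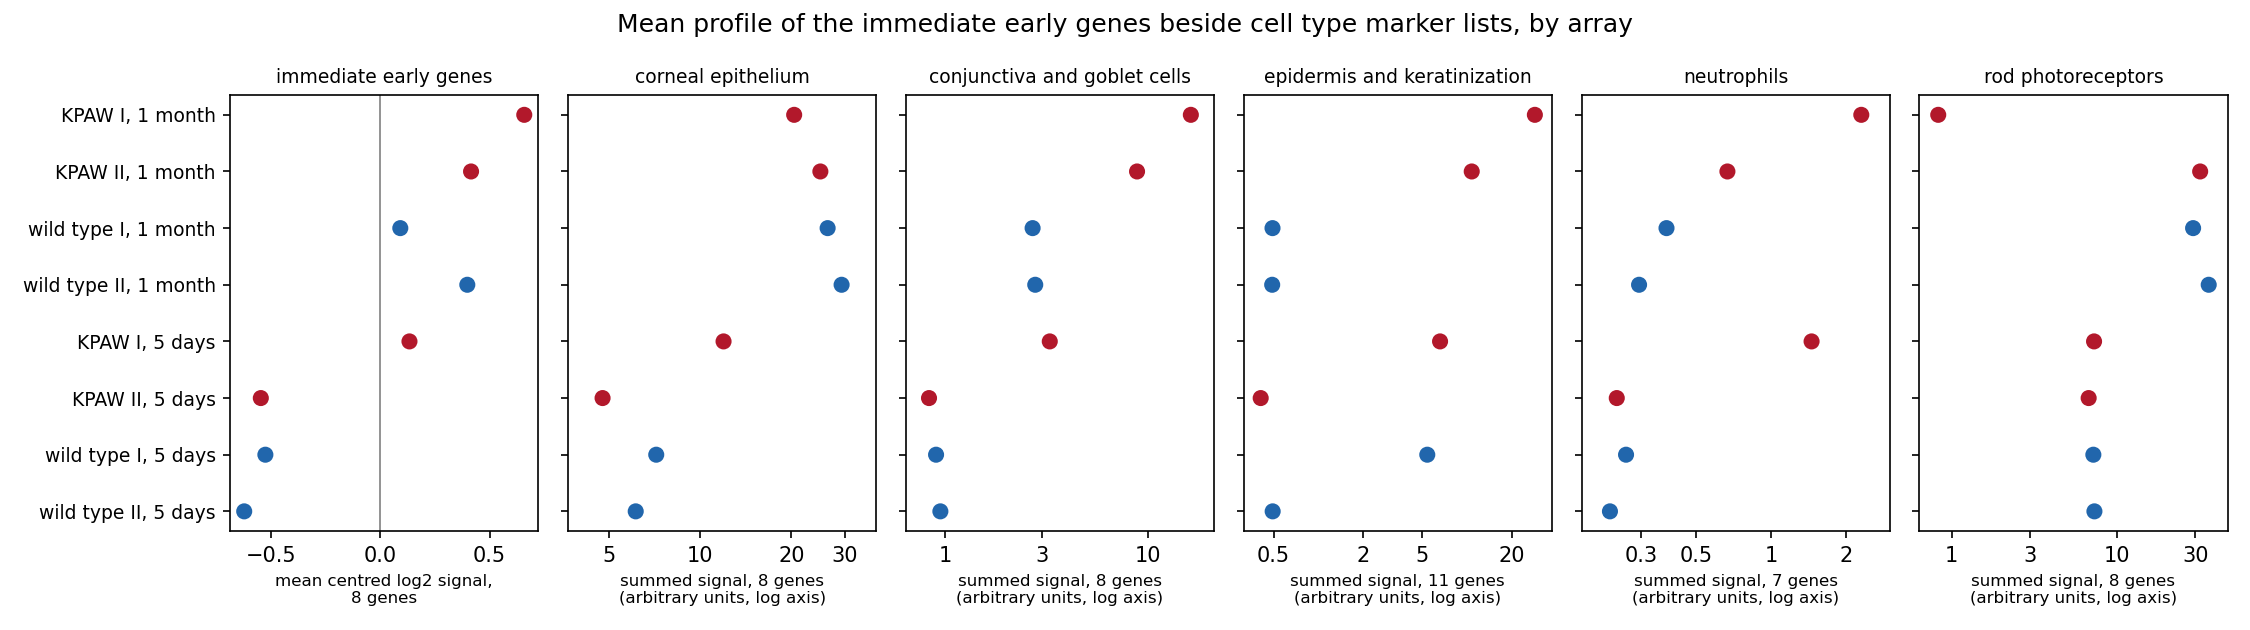
Mean centred log2 signal of the 8 immediate early genes tested (left panel) beside the summed signal (arbitrary units, log axes) of 5 marker lists, per array. KPAW I at 5 days, at 0.13, lies above the other 3 arrays of its age, at -0.62 to -0.53. Its corneal, conjunctival, epidermal and neutrophil sums are the highest of that age, though not every marker is. Without Krt5 and Krt14 its corneal sum, 5.25, is not the highest. Without Krt4 and Krt13 its conjunctival sum, 0.612, is not either.

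The change of the KPAW difference between the ages was called for none of the 9 probe sets, as for none of all (0%), and none had an unadjusted p under 0.05, against 5.88% of all. It was above 0 in 3 of 9, against 46.3% of all probe sets. That count depended on single arrays: it was 0 of 9 without KPAW II at 5 days or KPAW I at 1 month, and 1 without wild type I at 1 month. It was 5 without array II of either kind at 1 month, 6 without KPAW I at 5 days and 7 without KPAW I at either age. The values ran from -0.36 for Fos (SE 0.49, adjusted p = 0.896 in limma) to 0.15 for Zfp36 (SE 0.55, adjusted p = 0.962). With 2 arrays per group the standard errors ran from 0.19 for Jun 1448694_at to 0.60 for Egr1. What size of change could be detected here was not tested.

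Across the 8 arrays, 6 of the genes shared a profile. The highest correlations among members were 0.979 between Junb and Dusp1, 0.970 between Ier2 and Zfp36 and 0.952 between Fos and Junb. Fosb was weakly related to these 6 (0.13 to 0.34), and Jun 1448694_at ran against Fos at -0.77. These coefficients are over 8 arrays that share 4 groups and differ by age, so they describe the profiles only. Among 9484 other genes the mean profile of the members was most like that of Tmprss4, a membrane serine protease gene of epithelia (r = 0.989), Phlda1 (0.988), the amino acid transporter gene Slc6a14 (0.988), Traf3ip2, an adaptor of interleukin-17 signalling (0.987), and Rnasek (0.986). Slc6a14 read 0.913 and 0.411 in KPAW at 1 month, 0.299 and 0.354 in wild-type eyes at 1 month, 0.283 and 0.0283 in KPAW at 5 days and 0.0320 and 0.0290 in wild type at 5 days. It was high in KPAW I at both ages, as Zfp36 was. The genes most like Fos alone were Coro1b (0.9902), Frg1 (0.9895), Calml3 (0.982), Tspo (0.982) and Plac8 (0.980). Calml3, an epithelial calmodulin relative, read 2.20 and 2.22 in KPAW at 1 month, 2.20 and 2.48 in wild-type eyes at 1 month, 0.886 and 0.256 in KPAW at 5 days and 0.337 and 0.350 in wild type at 5 days.

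Other genes of the immediate early response were read from lists. No gene of the 7 lists passed for KPAW against wild type at either age. The counts for age below are to be read against all probe sets, of which 6.76% rose and 7.51% fell in KPAW and 8.73% rose and 9.33% fell in wild type. Of 25 other immediate early transcription factors, 19 were tested, and with age 3 rose and 1 fell in KPAW, while 4 rose and 2 fell in wild type. Klf4, a factor of differentiating surface epithelia, rose by 1.99 in KPAW (SE 0.37, adjusted p = 0.0127 in limma) and by 2.31 in wild type (SE 0.37, adjusted p = 0.00621). Bhlhe40, a repressor linked to the circadian clock, rose by 1.997 in KPAW and 1.38 in wild type. Klf10 fell by 0.62 in KPAW and fell by 0.80 in wild type. Cebpd rose by 1.19 in KPAW and was at 0.46 in wild type (adjusted p = 0.331 in limma). Fosl2, a Fos relative, was at 0.66 in KPAW (adjusted p = 0.117) and rose by 0.95 in wild type, and the nuclear receptor gene Nr4a1 was at 0.45 in KPAW (adjusted p = 0.181) and rose by 0.86 in wild type. The list's median was 0.20 in KPAW and 0.05 in wild type, against -0.04 and 0.00 over all probe sets.

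Of 38 immediate early effector and feedback genes, 26 were tested, and 6 rose and 4 fell in KPAW, while 8 rose and 5 fell in wild type. All probe sets gave 6.76% and 7.51% in KPAW and 8.73% and 9.33% in wild type. Sgk1, a serum- and glucocorticoid-induced kinase, rose by 1.43 in KPAW and 1.63 in wild type, and Phlda1 by 1.24 and 1.49. Gadd45g, a growth arrest and stress gene, fell by 1.72 in KPAW and fell by 2.03 in wild type. The antiproliferative gene Btg2 fell by 1.56 in KPAW and fell by 1.10 in wild type. The stress gene Gadd45b was at -0.90 in KPAW (adjusted p = 0.121 in limma) and fell by 1.67 in wild type. The list's median was 0.14 in KPAW and 0.25 in wild type.

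Of 12 AP-1 and ATF partners tested, 2 rose in KPAW and 3 in wild type, and none fell. Jdp2, a Jun-binding repressor, rose by 1.96 in KPAW (SE 0.18, adjusted p = 0.000958 in limma) and 1.54 in wild type (SE 0.18, adjusted p = 0.00175). Ddit3, the stress factor CHOP, rose by 1.14 and 1.03 in the same comparisons, and the small Maf gene Mafk was at 0.47 in KPAW (adjusted p = 0.156) and rose by 0.81 in wild type. Of 8 dual-specificity phosphatase genes other than Dusp1, 1 rose in each kind of eye. Dusp14 rose by 0.92 in KPAW and was at 0.53 in wild type (adjusted p = 0.121), and Dusp7 was at 0.16 in KPAW (adjusted p = 0.747) and rose by 0.98 in wild type.

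Of 19 serum response and MAP kinase genes tested, 2 rose in KPAW (6.76% of all probe sets) and 3 in wild type (8.73%), and none fell. They were Map2k1 (MEK1), by 0.63 in KPAW and 0.74 in wild type, the neural JNK gene Mapk10, by 0.72 and 0.83, and the p38 gene Mapk14, by 0.72 in wild type, with 0.56 in KPAW (adjusted p = 0.0829 in limma). Of 10 repressor genes none rose, and 2 fell in KPAW and 3 in wild type. The histone deacetylase gene Hdac2 fell by 1.51 in KPAW and 1.13 in wild type, the Groucho corepressor gene Tle1 by 1.02 and 1.09, and Tle3 by 0.58 in wild type, with -0.12 in KPAW (adjusted p = 0.669 in limma). Of 6 ZFP36 family and mRNA decay genes none passed in wild type, and 3 fell in KPAW. These were the mRNA stabilizer gene Elavl1 (-0.69 in KPAW, -0.28 in wild type), the deadenylase gene Cnot7 (-0.56 and -0.34) and the AU-rich-element binder gene Hnrnpd (-0.45 and -0.31).

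The position of the lists in KPAW I at 5 days was read in the same way as for the 9 probe sets. Above the wild-type mean lay 11 of 19 other transcription factors (median difference 0.05), 16 of 26 effector and feedback genes (0.17), 14 of 19 serum response and MAP kinase genes (0.12) and 5 of 6 ZFP36 family and decay genes (0.10). So did 8 of 12 AP-1 and ATF partners (0.05), 6 of 10 repressors (0.16) and 3 of 8 phosphatase genes (-0.06). All probe sets had a median of -0.01, and 48.7% of them lay above the wild-type mean. At 1 month 16 of 19 transcription factors (0.41) and 20 of 26 effectors (0.28) lay above it in KPAW I, and 14 of 19 (0.10) and 14 of 26 (0.05) in KPAW II. Of all probe sets, 50.2% did so in KPAW I and 47.9% in KPAW II. The difference between the lists and the 9 probe sets was not tested.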

How the data were processed

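The series' value table holds deposited signals, 1 for each probe set on each of 8 arrays. The sources used here do not give the software, background method or scaling by which the authors made these signals. They were taken as linear because their lowest value is fixed at 0.01, none is negative and the upper tail is long, with 10.0% to 14.9% of an array's probe sets at the lowest value. RNA was prepared with Trizol and RNeasy columns, per the labels. Precision is limited by the number of arrays, and all columns were used.

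The 64 control probe sets among 22690 were removed. Each array was divided so that its trimmed mean (2% off each end) met the median of the 8, with divisors from 0.791 to 1.41. Values were log2(signal + 0.0211), the 20th percentile of positive values, and the 15838 probe sets whose mean lay above the 30th percentile were kept. Gene names come from the platform annotation (20380 probe sets with 1 symbol, 691 with several, 1555 with none), and the brightest single-symbol probe set stands for a gene. limma 3.58.1 (R 4.3.3) fitted 4 group means over the 8 arrays (trend in the variance, residual degrees of freedom 4), and 5 contrasts were adjusted by Benjamini-Hochberg over the probe sets kept. On simulated data the model recovered 60% to 66% of probe sets changed 2-fold and 96% to 100% of those changed 4-fold. It made 11 to 16 false calls per contrast beside 50 changed probe sets at each of 4 folds. The simulated noise was independent and had the pooled spread, so these rates do not carry over where replicate arrays diverge. For KPAW against wild type at 1 month the epidermal list had a median log2 fold change of 4.74, and none of its 10 genes tested was called. Python 3.11.15 was used to search promoters (pandas 2.3.3) and to draw plots (matplotlib 3.10.9). Replicates correlated at 0.927 to 0.969.

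The members, the pathway lists and the marker lists were chosen with earlier results of these data known. Named genes were all members, list genes called in a KPAW contrast, up to 4 called list genes with the largest changes per age contrast, and the 5 genes most like the members' mean profile or Fos. Marker genes are given by list sums and by members at the lowest value. The keratins of the ocular surface, Aldh3a1, Aldh1a1, Lor, Flg, Calm4, Cx3cr1 and the neutrophil genes other than Camp were named after their values were seen. Pax6, Cryaa, Xist and Eif2s3y serve as checks. Deviations of arrays with the same numeral from their group means correlated between groups at -0.02 to 0.31, and the labels do not tie the numerals together, so they were not taken as pairs. Alternatives were quantile normalization, median scaling, no scaling, lower and higher pseudocounts, other filters, a fit without the trend, a fit of the compared groups only, a replicate block and leave-one-out fits. A common floor and leaving out KPAW I at both ages were chosen after seeing the data.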

Additional observations from a re-analysis of the deposited data

How the results depend on the processing

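With 2 arrays per group, single arrays decided many calls. For 1 month against 5 days, the number of immediate early probe sets called, 4 in each kind of eye, ran from 0 to 4 in KPAW and from 1 to 5 in wild type when an array was left out. With the groups of the contrast alone 0 passed in KPAW. The replicate block gave 4 and 4 called, and 0 for each KPAW comparison and for the change between ages, so it changed no call of a member. Without KPAW I at either age, 4 passed in KPAW (Jun was lost at -0.62, adjusted p = 0.0773 in limma, and Zfp36 gained at 1.32, adjusted p = 0.0175) and 5 in wild type. As deposited, Jun was lost in both kinds of eye and Egr1 and Zfp36 were gained, which gave 5 calls in KPAW and, with Ier2 (0.90, adjusted p = 0.0328), 6 in wild type. There 3238 of 3565 calls over all probe sets were higher, against 1382 of 2860 with scaling. In KPAW 873 of 1343 were higher as deposited, against 1070 of 2259. No called member changed sign under any alternative run. No member was called for KPAW against wild type, or for the change between ages, under any alternative.

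Over all probe sets, calls for KPAW against wild type at 1 month numbered 4. They numbered 99 as deposited, 19 with the groups alone, 13 with the replicate block, 2 with the pseudocount at the 5th percentile or the filter above the 50th, and 0 to 562 when an array was left out. At 5 days there were 0, and 27 without KPAW II at 5 days. For age the calls ran from 848 to 3690 in wild type and from 733 to 2173 in KPAW when an array was left out, and 604 passed with the KPAW groups alone. The change between ages gave 0 calls, 36 as deposited, and up to 306 without KPAW II at 1 month. The cause was not tested.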
